A study of Schizosaccharomyces pombe with 6 samples.

Results

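Messenger RNA levels of 10 fission yeast genes that build heterochromatin or carry out RNA interference (RNAi) were compared between wild-type cells and cells lacking the SPX domain protein Spx1. The genes, found by their common names among 6986 IDs in the count table, were *clr4*, *swi6*, *chp1*, *chp2*, *clr3*, *ago1*, *dcr1*, *rdp1*, *tas3* and *stc1*. Their systematic IDs place 3 on chromosome I, 5 on chromosome II and 2 on chromosome III, and all 10 had enough reads to be tested. The wild-type libraries came from a single h+ strain (AGP73) and the *spx1*Δ libraries from a single h+ strain (BS53) in which the *kanMX* drug resistance cassette replaced the *spx1* open reading frame (*spx1*∆::*kanMX*). The study states that the strains it constructed carry the auxotrophic alleles *leu1-32*, *ura4-D18* and *his3-D1* and a mutant allele of *ade6*, without saying so of each sequenced strain. Both strains grew vegetatively in log phase in YES, a rich medium, at 30°C, and 3 biological replicates of each were sequenced as poly(A)+ RNA. With 1 strain per genotype, any other difference between the 2 strains cannot be told apart from the loss of *spx1*.

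In fission yeast, heterochromatin coats the centromeric repeats, the silent mating-type cassettes and the regions next to the telomeres, and it is marked by methylation of lysine 9 of histone H3. The methyltransferase Clr4 writes the mark, chromodomain proteins read it, and histone deacetylases recruited by those readers keep transcription low. At the centromeres the RNAi machinery turns repeat transcripts into small RNAs that guide Clr4 back to the locus where they were made, so that silencing reinforces itself.

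Library totals ran from 11539278 to 15282140 counts for wild type and from 20929960 to 24696086 counts for *spx1*Δ, so that depth goes with strain. Read counts of the deleted gene *spx1* (SPAC6B12.07c) were lower in every *spx1*Δ library, at 113 to 120.2 CPM (counts-per-million values after TMM scaling, here and below) against 283 to 299 in wild-type cells. Thus 2424 to 2922 reads per *spx1*Δ library remained on this ID although the open reading frame was replaced, and where they fall was not examined. Between libraries of a strain the lowest Pearson coefficient was 0.951 for *spx1*Δ, for replicates 1 and 2, and 0.997 for wild type (across genes, which are not independent replicates). Some markers of mating and meiosis also differed between strains, where 52.9% of all genes tested did at an adjusted p of at most 0.05. P cells are the mating type of h+ strains. Of their genes, *map2* had 4.92 to 4.95 CPM in wild-type and 49.6 to 259 CPM in *spx1*Δ cells (edgeR adjusted p = 0.00379). The genes *map1* and *map3*, also of P cells, did not pass. Of the genes of the opposite M mating type, *mam2* had 30.8 to 36.3 CPM in wild-type and 48.1 to 144 CPM in *spx1*Δ cells (edgeR adjusted p = 0.0156). Also of M cells, *mam1* fell (edgeR adjusted p = 0.0289) and *mfm2* did not pass. Of the M-factor genes, *mfm1* was at or below 0.465 CPM in every library, and *mfm3* rose from 0.550 to 1.26 CPM in wild-type to 4.80 to 14.8 CPM in *spx1*Δ cells (edgeR adjusted p = 0.00495). Over 6 meiosis markers the summed level was 477 to 494 CPM in wild-type and 422 to 457 CPM in *spx1*Δ cells. Most of it came from *ste11*, which did not pass. Of the 6, *rec8* fell. The gene *mei3*, for an inducer of meiosis, rose from 0.532 to 0.550 CPM in wild-type to 5.21 to 27.5 CPM in *spx1*Δ cells (edgeR adjusted p = 0.00444). Levels of *mei2* (log2 fold change -0.87, edgeR adjusted p = 0.0828) and *spo6* (-0.56, edgeR adjusted p = 0.0594) were lower in every *spx1*Δ library than in any wild-type library but did not pass. The level of *mes1* overlapped between strains (log2 fold change 0.03, edgeR adjusted p = 0.760). Both *mfm3*, with 8 to 19 reads per wild-type library, and *mei3*, with 6 to 8, met the count filter through their *spx1*Δ libraries. Being high there let them be tested, so their adjusted p is not separate support. The part of these marker differences in the results below was not tested.

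Transcripts for 2 chromodomain proteins, *chp1* and *chp2*, rose in *spx1*Δ cells, and those for *swi6*, *dcr1*, *rdp1* and *tas3* fell, by amounts under 2-fold. The other 4, *clr4*, *clr3*, *ago1* and *stc1*, did not pass the test. A gene was called at an adjusted p of at most 0.05 (edgeR's quasi-likelihood test, Benjamini-Hochberg adjustment over the 6127 genes tested). By that rule 52.9% of all genes tested were called, 27.6% higher and 25.4% lower, so that 6 calls among 10 genes is near the background. Of the 4986 protein-coding genes tested, 1056 were called higher and 1507 lower. The median log2 fold change of *spx1*Δ over wild type was -0.12 over the 10 genes, -0.01 over all genes tested and -0.08 over the protein-coding genes tested. Levels did not overlap between the strains for 7 of the 10 genes, with 2 higher and 5 lower, against 66.2% of all genes tested (32.7% higher and 33.5% lower). Under the study's stricter thresholds, a 2-fold change together with an average normalized count of 100 in the higher strain, edgeR called 0 of the 10 genes, against 9.76% of all genes tested (7.51% higher, 2.25% lower). DESeq2 and limma-voom also called 0 there, and 6 of the genes had an unadjusted p under 0.05 in edgeR. The summed level of the 10 transcripts was 721 to 743 CPM in wild-type and 712 to 734 CPM in *spx1*Δ cells, so that it overlapped between strains. These are bulk cultures, in which fewer cells of a kind and less RNA per cell cannot be told apart.

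**Figure D1:**
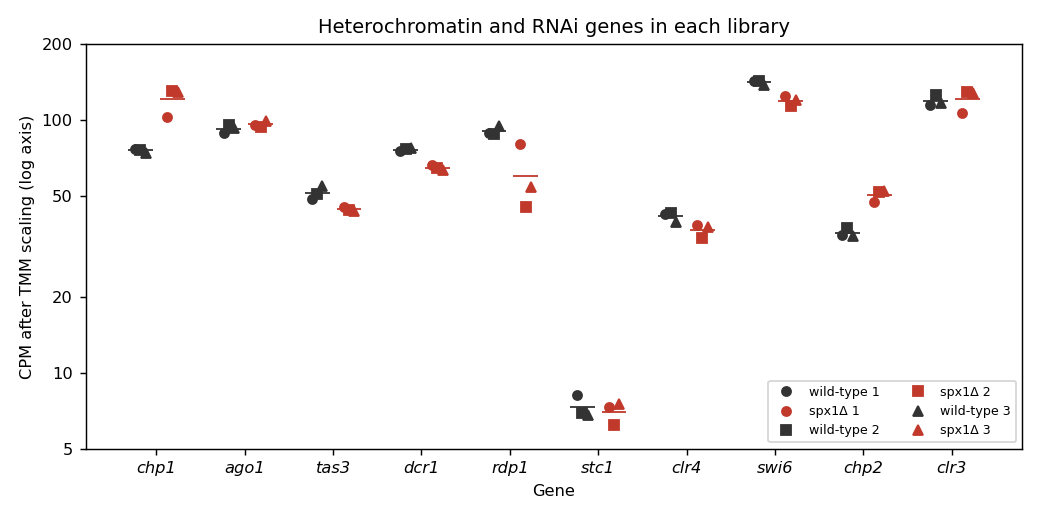
Level of each of the 10 genes in each library, in CPM after TMM scaling on a log axis. Black symbols are the 3 wild-type and red symbols the 3 *spx1*Δ replicates (circle, square and triangle for replicates 1, 2 and 3), and horizontal lines are means. The red symbols lie wholly above the black ones for *chp1* and *chp2* and wholly below them for *tas3*, *dcr1*, *rdp1*, *clr4* and *swi6*, with *rdp1* the most spread.

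The RNAi effector complex RITS joins Argonaute, the chromodomain protein Chp1 and the bridging protein Tas3, and its 3 transcripts did not move together. Chp1 binds methylated H3 and anchors RITS on chromatin. The level of *chp1* (SPAC18G6.02c) was 77.1, 75.9 and 74.3 CPM in wild-type replicates 1, 2 and 3 and 103, 130.4 and 129 CPM in *spx1*Δ replicates 1, 2 and 3. No mutant library came down to a wild-type one, and *spx1*Δ replicate 1 was the lowest of the mutant libraries. The rise was 1.59-fold, or 0.67 in log2 (standard error, SE, 0.10, edgeR adjusted p = 0.00471), and it was called under each of the 13 alternative settings (adjusted p 5.00e-07 to 0.0310).

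Tas3 holds Chp1 and Ago1 together. Its transcript *tas3* (SPBC83.03c) had 48.7, 50.8 and 54.6 CPM in wild-type replicates 1, 2 and 3 and 45.5, 44.2 and 43.7 CPM in the same-numbered *spx1*Δ replicates. The mutant libraries were all lower and lay close to each other. The log2 fold change was -0.21 (SE 0.07, edgeR adjusted p = 0.0483), just inside the threshold, and the call was kept in 2 of the 13 alternative settings (adjusted p 0.0138 to 0.169).

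Argonaute, encoded by *ago1* (SPCC736.11), carries the small RNA and is the slicer of RITS. Its level was 88.5, 95.8 and 93.2 CPM in wild-type and 95.2, 94.3 and 98.7 CPM in *spx1*Δ replicates 1, 2 and 3. The strains overlapped, and the log2 fold change was 0.05 (SE 0.06, edgeR adjusted p = 0.441).

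Because the 3 subunits share a complex, their transcripts were also set against each other within each library as CPM per kilobase of coding length. The *chp1* to *tas3* ratio was 0.906, 0.856 and 0.778 in wild-type and 1.29, 1.69 and 1.69 in *spx1*Δ replicates 1, 2 and 3. Thus, on this scale, *chp1* was the lower of the pair in every wild-type library and the higher in every *spx1*Δ library. Reads were counted over exons but scaled by coding length, so which of 2 genes is the more abundant could differ with transcript length. The *chp1* to *ago1* ratio went from 0.713 ± 0.0382 (SD, n = 3) to 1.09 ± 0.137 (SD, n = 3), and the *ago1* to *tas3* ratio from 1.19 ± 0.0595 (SD, n = 3) to 1.42 ± 0.0572 (SD, n = 3). Of 5 ratios compared, the libraries of the 2 strains did not overlap in any, and each had a two-sided exact permutation p of 0.1, also 0.1 after Benjamini-Hochberg adjustment, the smallest that 3 libraries against 3 can give. Each ratio contains *chp1* or *chp2*, called higher on their own, or *tas3*, called lower on its own, so the ratios add no separate evidence. How often ratios of other gene pairs separate the strains was not examined.

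**Figure D2:**
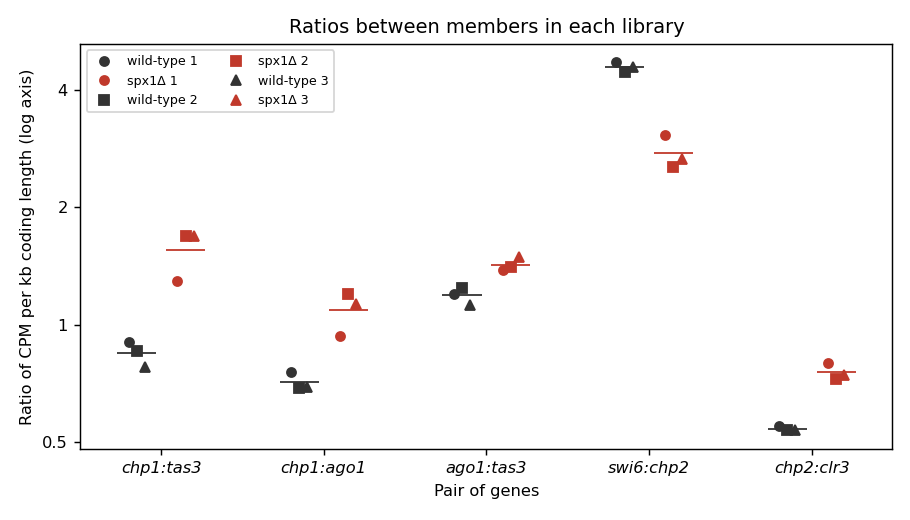
Ratio of the coding-length-scaled levels of 2 genes in each library, on a log axis, for 5 pairs. Black symbols are wild-type and red symbols *spx1*Δ replicates 1 to 3 (circle, square, triangle), and lines are means. The *swi6* to *chp2* ratio is the only one of the 5 that is lower in *spx1*Δ libraries, with means of 4.57 and 2.75.

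The enzymes that make small RNAs were both lower. Rdp1, the RNA-directed RNA polymerase of the RDRC complex, copies repeat transcripts into double-stranded RNA. For *rdp1* (SPAC6F12.09), wild-type replicates 1, 2 and 3 had 89.1, 88.3 and 94.6 CPM and *spx1*Δ replicates 1, 2 and 3 had 80.1, 45.1 and 54.2 CPM. The strains did not overlap, but *spx1*Δ replicate 1 was much nearer to wild type than its partners, at a log2 difference from the wild-type mean of -0.18 against -1.01 and -0.74. The fitted log2 fold change was -0.60 (SE 0.20, edgeR adjusted p = 0.0445), a 1.51-fold fall. It was -0.87 without *spx1*Δ replicate 1 (adjusted p = 5.71e-06) and the call was lost without any 1 of the other 5 libraries (adjusted p 0.0775 to 0.138), within a range of 5.71e-06 to 0.138 over all alternatives.

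Dicer cuts that double-stranded RNA into small RNAs. The level of *dcr1* (SPCC188.13c) was 75.4, 76.6 and 77.3 CPM in wild-type and 66.6, 64.6 and 63.3 CPM in *spx1*Δ replicates 1, 2 and 3. Here all 3 mutant libraries were lower by similar amounts. The log2 fold change was -0.24 (SE 0.06, edgeR adjusted p = 0.0160), kept in 8 of the 13 alternatives (adjusted p 0.00161 to 0.0750). Among the settings that lost it were those without wild-type replicate 1, 2 or 3 or *spx1*Δ replicate 3.

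Stc1, a small LIM-like protein, links the RNAi machinery to the Clr4 complex CLRC. Its transcript *stc1* (SPBP8B7.28c) was the least abundant of the 10, with 77 to 123 reads per wild-type library and 139 to 179 reads per *spx1*Δ library. The levels were 8.17, 6.90 and 6.81 CPM and 7.29, 6.20 and 7.53 CPM in replicates 1, 2 and 3. The strains overlapped (log2 fold change -0.06, SE 0.16, adjusted p = 0.756), and the sign of this difference changed between alternatives. With this SE, the largest among the 10 genes except that of *rdp1*, a small difference was not detectable.

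On the chromatin side, Clr4 is the only known H3 lysine 9 methyltransferase of fission yeast. The level of *clr4* (SPBC428.08c) was 42.5, 43.0 and 39.5 CPM in wild-type and 38.6, 34.0 and 37.8 CPM in *spx1*Δ replicates 1, 2 and 3. All mutant libraries were below all wild-type libraries, yet the difference did not pass (log2 fold change -0.18, SE 0.08, adjusted p = 0.109). It passed in 1 of the 13 alternatives, without *spx1*Δ replicate 1 (adjusted p = 0.0280, in a range of 0.0280 to 0.283).

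The 2 HP1 proteins Swi6 and Chp2 both read the methyl mark, and their transcripts moved in opposite directions. Swi6 is the more abundant reader and also helps to recruit cohesin to centromeres. Its transcript *swi6* (SPAC664.01c) had 142, 143 and 137 CPM in wild-type replicates 1, 2 and 3 and 125, 113 and 120.0 CPM in the same-numbered *spx1*Δ replicates. All 3 mutant libraries were lower. The log2 fold change was -0.24 (SE 0.06, edgeR adjusted p = 0.0159), a 1.18-fold fall, kept in 9 of the 13 alternatives (adjusted p 6.33e-04 to 0.0645). The call was lost without wild-type replicate 1, 2 or 3 or *spx1*Δ replicate 3.

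Chp2 tethers the deacetylase complex SHREC to methylated nucleosomes. For *chp2* (SPBC16C6.10), wild-type replicates 1, 2 and 3 had 35.0, 37.3 and 34.9 CPM and *spx1*Δ replicates 1, 2 and 3 had 47.3, 51.7 and 52.4 CPM. All 3 mutant libraries were higher, with little spread. The log2 fold change was 0.50 (SE 0.08, edgeR adjusted p = 0.00492), a 1.41-fold rise called under each of the 13 alternatives (adjusted p 5.89e-06 to 0.0320). Per kilobase of coding length, the *swi6* to *chp2* ratio was 4.70, 4.45 and 4.57 in wild-type and 3.05, 2.53 and 2.65 in *spx1*Δ replicates 1, 2 and 3. The libraries of the 2 strains were well apart, and *swi6* stayed the higher of the pair on this scale in all 6 libraries.

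Clr3 is the SHREC deacetylase that removes acetyl groups from histone H3. Its transcript *clr3* (SPBC800.03) had 115, 126 and 117 CPM in wild-type replicates 1, 2 and 3 and 107, 129 and 128 CPM in the same-numbered *spx1*Δ replicates. Replicate 1 was the lowest of all 6 libraries and the other 2 mutant libraries were the highest. The log2 fold change was 0.02 (SE 0.09, edgeR adjusted p = 0.821), and its sign changed between alternatives. The *chp2* to *clr3* ratio was 0.542 ± 0.00798 (SD, n = 3) in wild-type and 0.755 ± 0.0379 (SD, n = 3) in *spx1*Δ libraries.

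**Figure D3:**
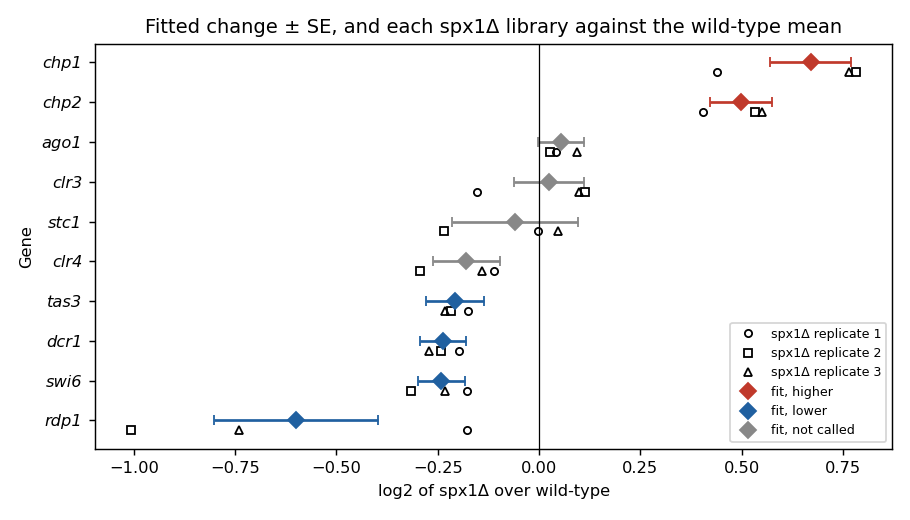
Change of each of the 10 genes as log2 of *spx1*Δ over wild type. Diamonds with bars are fitted values ± SE (red called higher, blue called lower, grey not called), and open circles, squares and triangles are *spx1*Δ replicates 1, 2 and 3 against the wild-type mean. Fitted values run from -0.60 for *rdp1* to 0.67 for *chp1*, and the circle lies nearest to 0 for 8 of the 10 genes.

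*spx1*Δ replicate 1 was the mutant library nearest to the wild-type mean for 8 of the 10 genes, the exceptions being *ago1* and *clr3*. How often this held over all genes tested was not counted, so it cannot be read as particular to these genes. Without *spx1*Δ replicate 1, *chp1* rose by 0.77, *chp2* by 0.54 and *rdp1* fell by 0.87 on the log2 scale. In that fit 5 genes were called lower, *clr4* besides the 4 named above. Without wild-type replicate 1, 2 or 3 or *spx1*Δ replicate 3, edgeR called 0 of the 10 genes lower, and 3, 2, 2 and 2 were lower at an unadjusted p under 0.05, in that order. Those fits called fewer genes everywhere, 10.5%, 12.3%, 10.2% and 9.08% of all genes tested being lower, and the fit without *spx1*Δ replicate 1 called 38.5% lower, so that the counts of members follow the background. The 2 rises were called with any 1 library left out. The 4 falls kept their direction in each of these 6 fits, at -0.28 to -0.20 in log2 for *swi6*, -0.26 to -0.22 for *dcr1*, -0.87 to -0.43 for *rdp1* and -0.25 to -0.16 for *tas3*.

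Levels were then put on a common scale as CPM per kilobase of coding length, with coding lengths from the ASM294v3 annotation. Reads were counted over exons, so exon sequence outside the coding part enters the levels but not the lengths. The order of genes with close levels, and the percentages of genes exceeded, carry that limit. In wild-type cells *swi6* stood far above the others at 143 ± 3.09 (SD, n = 3), followed by *clr3* at 57.7 ± 2.79 (SD, n = 3) and *ago1* at 36.9 ± 1.47 (SD, n = 3). Only *swi6* exceeded the median of 69.1 over 4981 protein-coding genes tested, and *stc1*, at 11.3 ± 1.18 (SD, n = 3), exceeded 6.59% of those genes. The middle of the order was *chp2* at 31.3 ± 1.19, *tas3* at 31.1 ± 1.81, *clr4* at 28.3 ± 1.30, *chp1* at 26.3 ± 0.493 and *rdp1* at 24.8 ± 0.934 (SD, n = 3 each). *chp2* and *tas3* overlapped between libraries, as did *chp1* and *rdp1*, so that the order within those pairs is not set. *dcr1* came ninth at 18.5 ± 0.228 (SD, n = 3).
In *spx1*Δ cells *swi6* at 121 ± 5.86 (SD, n = 3) and *clr3* at 58.7 ± 5.92 (SD, n = 3) kept their places. Next came *chp2* at 44.1 ± 2.43, *chp1* at 41.8 ± 5.38 and *ago1* at 38.3 ± 0.940 (SD, n = 3 each), with overlaps between *chp2* and *chp1* and between *chp1* and *ago1*. *chp1* thereby moved from above 17.4% of protein-coding genes in wild-type cells to above 32.9%, and *chp2* from above 21.5% to above 34.7%. *rdp1* at 16.4 ± 4.98 (SD, n = 3) overlapped with *dcr1* at 15.7 ± 0.404 (SD, n = 3) there.

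Reads of overlapping genes can enter these values. The library kit kept strand, but the sources used here do not state which strand setting the counting step had. In the later reference annotation (ASM294v3), 9 of the 10 genes, all but *swi6*, overlap a feature of the opposite strand, and for 3 of them that feature is another protein-coding gene. These are *meu6* over *clr4*, *spn6* over *dcr1* and *mug30* over *stc1*, named here for their position. The meiotically expressed gene *meu6* rose by 1.27 on the log2 scale (adjusted p = 0.00294) and *mug30* by 0.64 (adjusted p = 0.0236), while *clr4* and *stc1* did not pass. The septin gene *spn6* had 0.807 to 1.24 CPM in wild-type and 1.14 to 4.28 CPM in *spx1*Δ cells (adjusted p = 0.0617). The only antisense RNA that the files name after one of the 10 genes, clr3-antisense-1 (SPNCRNA.1331), had 5 to 8 reads per wild-type library and 12 to 20 reads per *spx1*Δ library (log2 fold change 0.57, SE 0.29, adjusted p = 0.169). The part of shared reads in the 10 genes' values was not tested.

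A wider list of 30 IDs also held changes in both directions. It was drawn up of heterochromatin, RNAi and telomere factors in 10 groups by complex or role. In it 7 rose, 11 fell and 12 did not pass, against the background of 27.6% higher and 25.4% lower, and the median log2 fold change was -0.09. Of the 4986 protein-coding genes tested, to which this list belongs, 1056 were called higher and 1507 lower. Of the 18 called, 7 were called the same way in all 13 alternatives. These were *hrr1*, *mst2* and *poz1* higher and *arb1*, *clr6*, *sir2* and *abp1* lower. The last, SPAPJ760.02c, was not established as a heterochromatin factor, as said below. The other 11 calls were lost in 1 or more alternatives. Without wild-type replicate 1, 2 or 3 or *spx1*Δ replicate 3, edgeR called 3 genes of the list higher each time and 4, 6, 4 and 4 lower, and without *spx1*Δ replicate 1 it called 12 higher and 13 lower. Over all genes tested those fits called 15.0%, 16.5%, 15.3% and 15.4% higher and 10.5%, 12.3%, 10.2% and 9.08% lower, and without *spx1*Δ replicate 1 they were 36.8% and 38.5%.
Of the other 2 subunits of RDRC, the helicase gene *hrr1* rose by 0.50 in log2 (SE 0.10, edgeR adjusted p = 0.0101), from 62.5 to 65.8 CPM in wild-type to 77.9 to 101 CPM in *spx1*Δ cells. Its complex partner *rdp1* fell in the same libraries. The nucleotidyltransferase gene *cid12* did not pass (log2 fold change 0.17, adjusted p = 0.105). In ARC, the complex that holds Argonaute before RITS forms, *arb1* fell by 0.93 (SE 0.08, edgeR adjusted p = 0.00184), from 41.1 to 42.2 CPM in wild-type to 21.0 to 23.6 CPM in *spx1*Δ cells, whereas *arb2* did not pass (log2 fold change -0.10, adjusted p = 0.721). The *arb1* fall was as large in *spx1*Δ replicate 1 as in the others, at -0.99, -0.82 and -0.98 in replicates 1, 2 and 3. Among 3 further RNAi factors, *dsh1* rose by 0.65 (adjusted p = 0.0216) and the exonuclease gene *tri1* by 0.49 (adjusted p = 0.0355), and *ers1* did not pass.

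In CLRC, the ubiquitin ligase that contains Clr4, *rik1* fell by 0.40 in log2 (SE 0.10, edgeR adjusted p = 0.0157) and *raf2* by 0.35 (SE 0.08, edgeR adjusted p = 0.0130). Of the other subunits in the list, *cul4* and *rbx1* did not pass. In SHREC, *clr2* fell by 0.99 (SE 0.25, edgeR adjusted p = 0.0183) and *clr1* by 0.65 (SE 0.18, edgeR adjusted p = 0.0236), and the remodeler gene *mit1* did not pass. Thus the SHREC genes held *chp2* higher, *clr1* and *clr2* lower, and *clr3* and *mit1* not passing. *clr2* was at 50.9 to 52.5 CPM in wild-type cells and at 36.7, 17.9 and 23.1 CPM in the *spx1*Δ libraries (replicates 1, 2 and 3), again with replicate 1 nearest to wild type. Both further deacetylase genes fell, *clr6* by 0.86 (SE 0.18, edgeR adjusted p = 0.0109) and *sir2*, for an NAD-dependent enzyme, by 0.55 (SE 0.11, edgeR adjusted p = 0.00849).

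Among 4 factors that oppose heterochromatin or mark its boundary, the acetyltransferase gene *mst2* rose by 0.71 in log2 (SE 0.07, edgeR adjusted p = 0.00203), from 194 to 213 CPM to 315 to 355 CPM, and the bromodomain protein gene *bdf2* by 0.19 (adjusted p = 0.0155). The JmjC protein gene *epe1* and *leo1* of the Paf1 complex did not pass. Of 6 telomere proteins, *poz1*, a bridge within shelterin, rose by 1.13 (SE 0.13, edgeR adjusted p = 0.00276), the only change of at least 2-fold in the list. *taz1*, for the protein that binds telomere repeats, fell by 0.41 (adjusted p = 0.0440) and *ccq1* by 0.36 (adjusted p = 0.0162), and *rap1*, *tpz1* and *pot1* did not pass. The inner nuclear membrane protein gene *lem2* fell by 0.43 (adjusted p = 0.0227). Of the CENP-B relatives, *cbh2* rose by 0.56 (adjusted p = 0.0231) and *cbh1* did not pass. The name *abp1*, listed with them, matched SPAPJ760.02c, whose coding length of 2574 bp differs from the 1545 bp of *cbh1* and *cbh2*. That this ID is the CENP-B relative was not established, so it is not read as a heterochromatin factor. It fell by 0.53 (SE 0.08, edgeR adjusted p = 0.00453), and the counts of the list include it.

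**Figure D4:**
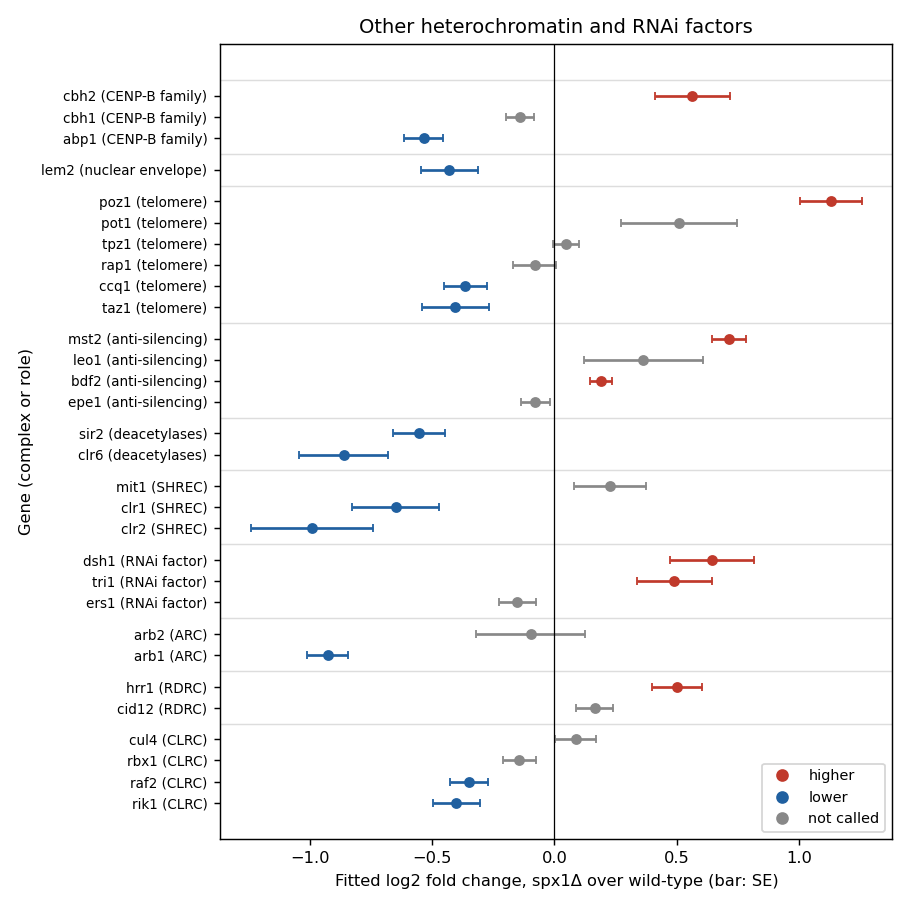
Fitted log2 fold change of *spx1*Δ over wild type for the 30 further IDs, grouped by complex or role as listed. The point for *abp1* is SPAPJ760.02c, which was not established as a CENP-B relative. Points are fitted values, bars are SEs, and red, blue and grey stand for called higher, called lower and not called. Values run from -0.99 for *clr2* to 1.13 for *poz1*, and most groups of 2 or more hold genes on both sides of 0.

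Genes that lie in regions known to carry heterochromatin were read as a last group. Whether heterochromatin bears on their levels in these cells was not tested. Of 8 asked for, 6 matched an ID, 3 had enough reads to be tested and 2 rose, where 27.6% of all genes tested were called higher. The subtelomeric helicase gene *tlh2* had 14, 8 and 32 reads in wild-type and 276, 158 and 214 reads in *spx1*Δ replicates 1, 2 and 3, or 0.930, 0.717 and 2.20 CPM against 11.2, 7.05 and 10.01 CPM. Every mutant library was above every wild-type library, and the log2 fold change was 2.85 (SE 0.41, edgeR adjusted p = 0.00435), or 7.20-fold. Without wild-type replicate 3, the wild-type library with the most *tlh2* reads, it was 3.50, or 11.3-fold. Its near-identical copy *tlh1* had 1, 0 and 4 reads in wild-type and 14, 5 and 8 in *spx1*Δ replicates 1, 2 and 3 and was not tested, and reads that fit both copies make the split between them uncertain.
The meiotic transcription factor gene *mei4*, which lies in an island of facultative heterochromatin in vegetative cells, had 7.31, 6.37 and 6.88 CPM in wild-type and 20.6, 24.4 and 24.6 CPM in *spx1*Δ replicates 1, 2 and 3. All 3 mutant libraries were about equally high (log2 fold change 1.76, SE 0.13, adjusted p = 0.00105). Both rises were called in all 13 alternatives (adjusted p 4.48e-09 to 0.0286 for *tlh2* and 8.87e-22 to 0.0152 for *mei4*). *ssm4*, of another such island, did not pass (log2 fold change 0.52, SE 0.20, adjusted p = 0.0687). The silent cassette genes *mat3-Mc* and *mat3-Mi* had 0 reads in all 6 libraries, which allows up to 3 reads, or 0.121 to 0.260 CPM before TMM scaling, in a library (counting error only). The genes share their sequence with other mating-type cassettes, so reads that fit more than 1 place cannot be followed here. Small RNAs, histone marks and transcripts of the centromeric repeats were not analysed here.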

How the data were processed

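Poly(A)+ RNA libraries of 3 wild-type and 3 *spx1*Δ replicates were analysed. The authors mapped paired reads with HISAT2 2.1.0 and obtained counts with HTSeq 0.10.0 on exons of build ASM294v2, per the submitters' processing notes and the methods; the deposited table gives whole-number counts per ID. In a second deposited table from DESeq2, the authors' columns (mean normalized signal per strain, log2 fold change, Wald score, p-values) hold their comparison and were not used, only its names and gene types. Of 6987 rows, 1 duplicate was dropped, and 6833 of 6986 IDs matched the reference annotation. Counts were TMM scaled, filtered with filterByExpr and tested with edgeR 4.0.16 (R 4.3.3; glmQLFit, glmQLFTest, without further terms), adjusted over 6127 genes. The standard error is the absolute log2 fold change over the square root of F. The test was checked on simulated data. Alternatives were DESeq2 1.42.0, limma 3.58.1 voom, other scalings, no filter, protein-coding genes only, a replicate block and 6 fits that each left out 1 library. Ratios were tested with scipy 1.17.1. Coding lengths, overlaps and neighbors were read from the ASM294v3 annotation, a later build whose coordinates are not printed. The members and lists were chosen with earlier results of these data known. Named genes were all 10 members, *spx1*, antisense RNAs of members and, of each role group and list, up to 3 called genes with the largest change; genes that did not pass and genes named for position were added. Names *cul4* and *mat3-Mi* were matched through synonyms, and *mat2-Pc* and *mat2-Pi* matched no ID. A further gene considered for the wider list was left out and is not reported here. Depth limits mainly genes with few reads. With 1 strain per genotype, p-values reflect variation among its replicates alone.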

Additional observations from a re-analysis of the deposited data

How the results depend on the processing

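The 10 members, the wider list and the genes in regions of heterochromatin were followed over the fits. No gene among them that was called in the fit reported or in an alternative changed its sign between them. Both *chp1* and *chp2* were called higher in all 13 alternatives. The members called lower, 4 as reported, were 2 with protein-coding genes only in the fit and 2 with the replicate block, and 0 to 5 with 1 library left out. With 1 library left out, members called higher stayed at 2, the wider list had 3 to 12 higher and 4 to 13 lower, and all genes tested had 936 to 2268 higher and 555 to 2377 lower, against 1689 and 1555 as reported. Deviations of same-numbered libraries correlated at 0.117, 0.0330 and 0.0537 across genes, and those of differently numbered libraries at -0.132 to 0.0786. With 3 libraries per strain, these values cannot show whether replicate numbers pair the libraries. Under the replicate block *dcr1* (adjusted p = 0.0526) and *tas3* (adjusted p = 0.120) were not called by edgeR. Of 130 alternative values for members, 103 stayed on the same side of the threshold, 26 lost the call and 1 gained it. Among the members not called, *clr3* and *stc1* changed sign in some alternatives. Depth limits genes with few reads, such as *stc1*, *tlh1* and clr3-antisense-1.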

Other observations

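Genes next to the 10 members on the chromosome (order from the ASM294v3 annotation, chosen for position) were read for comparison. Of 24 neighboring or overlapping IDs in the count table, 19 were tested, 4 were higher and 2 lower, where 27.6% of all genes tested were called higher and 25.4% lower. The gene *mmi1*, for the RNA-binding protein that marks meiotic transcripts for elimination, faces *ago1* from the other strand, and it rose by 0.57 in log2 (SE 0.13, edgeR adjusted p = 0.0130) while *ago1* did not pass. Its level was 160.0, 171 and 155 CPM in wild-type and 194, 263 and 266 CPM in *spx1*Δ replicates 1, 2 and 3. Upstream of *chp2* on the same strand, *ogm4*, for a protein mannosyltransferase, rose by 0.18 (SE 0.06, edgeR adjusted p = 0.0381), and downstream of *chp2* the ribosomal protein gene *rpl3201* did not pass (log2 fold change -0.08, adjusted p = 0.342). Downstream of *chp1*, SPAC18G6.01c did not pass (log2 fold change -0.19, adjusted p = 0.216). Downstream of *rdp1*, *ade3*, for purine synthesis, fell by 0.41 (SE 0.14, edgeR adjusted p = 0.0469), with 674, 462 and 523 CPM in the mutant (replicates 1, 2 and 3) and 706 to 789.9 CPM in the wild-type libraries. Upstream of *tas3*, *apc15*, for a subunit of the anaphase-promoting complex, fell by 0.44 (SE 0.10, edgeR adjusted p = 0.0141). The call of *ade3* was kept in 6 of the 13 alternatives and that of *ogm4* in 7, both lost without any 1 library except *spx1*Δ replicate 1 (adjusted p over all alternatives 4.71e-05 to 0.144 and 0.00343 to 0.1399). That of *mmi1* was kept in 10, being lost without wild-type replicate 1 or 3 or *spx1*Δ replicate 3 (adjusted p 1.25e-06 to 0.0574), and that of *apc15* in 11, being lost without wild-type replicate 1 or 3 (adjusted p 0.00277 to 0.0631). Of the overlapping genes, *meu6* was called in all 13 and *mug30* in 9, being lost without wild-type replicate 1, 2 or 3 or *spx1*Δ replicate 3. Whether neighboring transcription bears on any member was not tested.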
